A study of Mus musculus with 2 samples.

Results

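The HoxA genes were examined in bulk RNA-seq of small intestine crypts from C57BL/6 mice, with 1 wild-type and 1 Eed knockout library. They were chosen by gene symbol, as the 10 symbols Hoxa2 to Hoxa13 that follow each other along the cluster, of 17216 genes with a row in the deposited table. Both groups carried AhCre, a Cre recombinase under an aryl hydrocarbon receptor responsive promoter, and both were given 3 injections of its inducer β-naphthoflavone. Crypts were collected 15 days after injection. The knockout group also carried floxed Eed alleles (AhCreEedfl/fl), and the Eed protein is one of the core components of PRC2, a Polycomb repressive complex. The labels do not say from how many mice each library was made. With 1 library per genotype nothing below was tested between genotypes, and intervals cover counting error only. Read numbers are whole reads recovered from the deposited values, the wild type first, out of 6970733 and 5918162 in all. Normalized reads are these divided by the authors' size factors, and ratios are knockout over wild type after that scaling.
Hox genes encode homeodomain transcription factors that give positional identity along the body axis of the embryo. Their order along the chromosome matches the order of their expression domains from anterior to posterior, so that Hoxa2 acts towards the head and Hoxa13 towards the tail, the limb tips and the hindgut. PRC2 methylates a lysine in the tail of histone H3, and in mammals Hox clusters are among the best known regions that it keeps silent. Many PRC2-bound promoters are rich in the dinucleotide CG.

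Promoters of 5 members are shown because they lie at both ends and in the middle of the cluster and include those with the lowest and the highest CG count. Each is RefSeq sequence of build GRCm38.p6, minus strand, written 5′ to 3′ from 250 bases before to 50 bases after the start of transcription, with CG dinucleotides in capitals.
Hoxa2: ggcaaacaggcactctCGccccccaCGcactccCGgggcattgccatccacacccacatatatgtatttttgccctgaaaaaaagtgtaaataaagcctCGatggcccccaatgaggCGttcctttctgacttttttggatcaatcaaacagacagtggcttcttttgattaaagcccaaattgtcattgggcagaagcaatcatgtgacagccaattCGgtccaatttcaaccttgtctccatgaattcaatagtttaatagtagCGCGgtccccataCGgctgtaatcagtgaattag
Hoxa5: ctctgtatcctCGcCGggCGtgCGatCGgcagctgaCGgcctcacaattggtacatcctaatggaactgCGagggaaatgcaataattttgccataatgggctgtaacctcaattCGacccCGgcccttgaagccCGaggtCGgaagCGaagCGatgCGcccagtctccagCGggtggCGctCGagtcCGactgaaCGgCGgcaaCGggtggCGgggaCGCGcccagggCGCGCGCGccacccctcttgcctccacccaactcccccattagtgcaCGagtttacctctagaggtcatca
Hoxa9: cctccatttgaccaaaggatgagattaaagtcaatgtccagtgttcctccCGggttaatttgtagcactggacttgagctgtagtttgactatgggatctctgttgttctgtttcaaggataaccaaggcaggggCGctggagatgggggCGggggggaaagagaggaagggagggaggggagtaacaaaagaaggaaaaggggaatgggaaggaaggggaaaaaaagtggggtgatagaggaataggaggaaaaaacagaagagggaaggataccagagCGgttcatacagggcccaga
Hoxa11: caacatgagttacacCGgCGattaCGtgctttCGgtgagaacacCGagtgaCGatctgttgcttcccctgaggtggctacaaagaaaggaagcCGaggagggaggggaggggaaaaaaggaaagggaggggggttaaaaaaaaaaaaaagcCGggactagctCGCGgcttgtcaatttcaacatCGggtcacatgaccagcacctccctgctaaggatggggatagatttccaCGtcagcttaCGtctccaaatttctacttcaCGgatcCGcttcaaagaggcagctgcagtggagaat
Hoxa13: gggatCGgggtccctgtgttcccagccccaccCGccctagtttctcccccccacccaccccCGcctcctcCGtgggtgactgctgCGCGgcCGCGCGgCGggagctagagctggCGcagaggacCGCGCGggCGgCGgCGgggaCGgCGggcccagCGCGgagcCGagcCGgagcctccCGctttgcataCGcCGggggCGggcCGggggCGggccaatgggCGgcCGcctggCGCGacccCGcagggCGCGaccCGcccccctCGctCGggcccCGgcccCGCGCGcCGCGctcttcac
They lie, in the order printed, at chr6:52164782-52165081, chr6:52204538-52204837, chr6:52227321-52227620, chr6:52245761-52246060 and chr6:52260831-52261130. RefSeq promoters were matched for 9 of the 10 members, with 2 for Hoxa10, and the 10 promoters held 4 to 45 CG dinucleotides with a median of 17.5. The median over all 32851 promoters in the table was 7, and 9 of the 10 HoxA promoters were above it. Hoxa13 had 45, and 98.1% of all promoters had fewer. Hoxa9 had 4, and 31.4% of all promoters had fewer. The CG count did not follow the position in the cluster, as the Hoxa2 promoter held 9, that of Hoxa5 29 and that of Hoxa11 15. In 7 of the 10 promoters the start was also the first base of a counted transcript, and for Hoxa3 and Hoxa6 it lay within 50 bases of it. For Hoxa7 it lay 1068 bases away, so its sequence, with 9 CG dinucleotides, is not next to the start of the transcript that was counted and is not shown. TTTATG, a site of the kind bound by Cdx factors, was searched on both strands and was found 2 times in that Hoxa7 sequence and in none of the other HoxA promoters, against 11.9% of all promoters with at least 1. TGATTNAT, the composite site of Hox and Pbx proteins, was found in the Hoxa2 promoter alone of the 10, against 3.22% of all. TATAAA was found in 1 of the 10, the promoter at which the NM_008263 transcript of Hoxa10 starts, against 13.6% of all.

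In the Eed knockout library 9 of the 10 HoxA genes were at least 2-fold higher than in the wild-type library, and Hoxa4 was within 2-fold. By the same rule, in which a count of 0 is replaced by a floor of 3 reads, 14.0% of all 17216 genes were higher by 2-fold or more and 4.30% were lower. Over the 10 members the libraries held 59 wild-type and 657 knockout reads, giving a ratio of 11.6 after scaling (95% counting interval 8.88 to 15.4). The median log2 ratio of the 10 members, on the log2(normalized reads + 1) scale, was 3.42, where that of all genes was -0.0044. Only 6 members reached a mean of 20 normalized reads, and those 6 were called higher at a log2 ratio of at least 1, as were 11.2% of the 10778 genes with that mean, while 3.65% were called lower. Of the 6, 5 were under 20 in the wild type and passed that filter through their knockout values, so their count says little. The lower end of the counting interval was above 2 for 8 members and for 6.53% of all genes. An exact binomial test on the reads, which sets 1 library against the other and not genotype against genotype, called 9 of 10 members higher at a Benjamini-Hochberg adjusted p under 0.05, beside 17.2% of all genes called higher and 23.1% called lower.

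**Figure D1:**
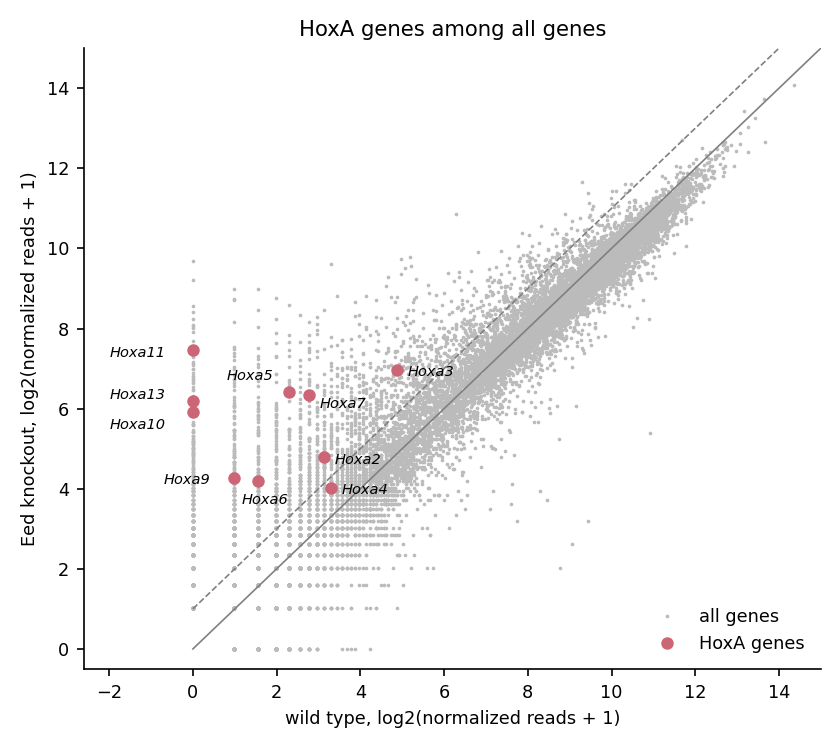
Each point is a gene, with log2(normalized reads + 1) in the wild-type library on the horizontal axis and in the Eed knockout library on the vertical axis. The solid line marks equal levels and the dashed line a 2-fold higher level on this scale. The HoxA genes (red) lie above the dashed line, except Hoxa4, and Hoxa10, Hoxa11 and Hoxa13 stand at 0 in the wild type.

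The 3 members nearest the anterior (3′) end of the cluster were the ones with the most wild-type reads, and their ratios were the smallest. Hoxa2, which patterns the hindbrain and the second pharyngeal arch, had 8 wild-type and 26 knockout reads, for a scaled ratio of 3.39 (1.49 to 8.66). Hoxa3, needed for the thymus, parathyroid and neck structures, had 29 and 122 reads and a scaled ratio of 4.38 (2.91 to 6.82). Hoxa4, which acts in the patterning of neck vertebrae, had 9 and 15 reads, or a ratio of 1.74 (0.712 to 4.50). The counts of Hoxa4 do not resolve a difference, since its interval runs from below 1 to above 4.

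The middle of the cluster had few wild-type reads and higher ratios. Hoxa5, a regulator of lung and gut development, had 4 and 82 reads, giving a ratio of 21.4 (8.03 to 80.3). Hoxa6, which takes part in vertebral patterning, had 2 and 17 reads and a scaled ratio of 8.86 (2.10 to 79.1). Hoxa7, also a vertebral patterning gene, had 6 and 78 reads, or a ratio of 13.5 (5.95 to 38.0). These intervals overlap, so the order of the ratios among the 3 genes is not resolved. Hoxa9, best known from blood stem cells and leukaemia, had 1 and 18 reads, giving a ratio of 18.8 (2.96 to 782). The intervals of Hoxa6, Hoxa7 and Hoxa9 overlap those of Hoxa2 and Hoxa3, so gene by gene their higher ratios are not resolved from these.

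No wild-type read was counted for the 3 genes at the posterior (5′) end. Hoxa10, which patterns the lumbar region and the uterus, had 0 and 58 reads. With the 0 set to the floor of 3 reads it was 20.1-fold higher, and its counting interval starts at 15.9. Hoxa11, a gene of the forearm, kidney and uterus, had 0 and 171 reads. It was 59.4-fold higher at the floor, with an interval that starts at 47.8. Hoxa13, the gene of the digits, the hindgut and the genital tract, had 0 and 70 reads. It was 24.3-fold higher at the floor, with an interval that starts at 19.3. Of all 17216 genes, 1.59% had 0 wild-type reads and were at least 2-fold higher at the floor. A count of 0 among 6970733 wild-type reads does not show that the genes were silent in every cell.

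**Figure D2:**
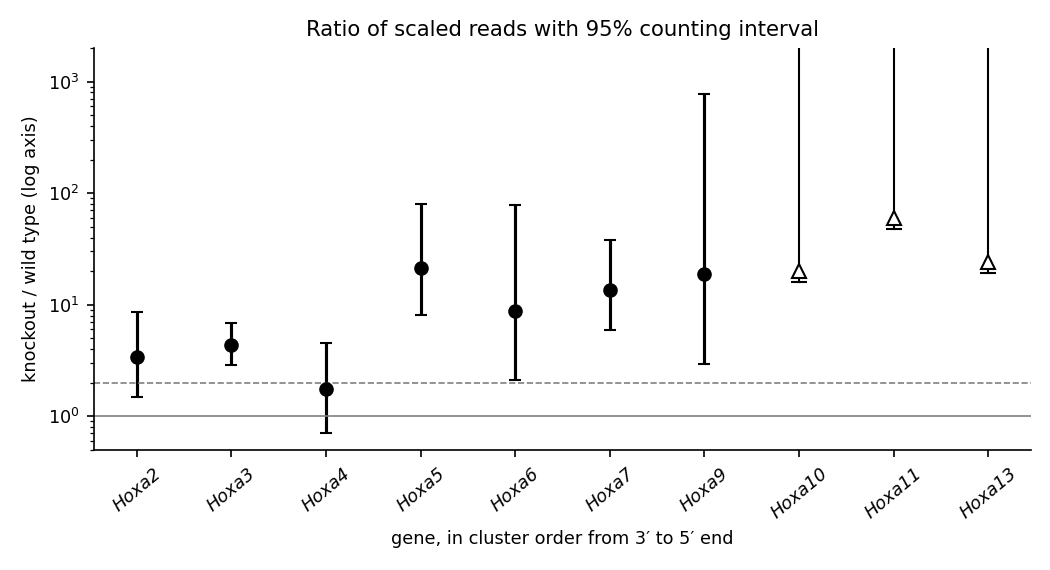
Ratio of scaled reads, knockout over wild type, on a log axis for the 10 HoxA genes in cluster order. Filled points carry 95% counting intervals. Genes with 0 wild-type reads have an open triangle at the bound set by 3 wild-type reads and a line that starts at the lower end of the interval and has no upper end. The solid line is a ratio of 1 and the dashed line a ratio of 2, and only the interval of Hoxa4 reaches below 1.

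The ratios were larger towards the posterior end. Spearman's rho between the position in the cluster and the log2 ratio, with genes at 0 set to their bound, was 0.87 over the 10 genes. The log2 ratios here have a pseudocount of 1 and the bounds have none, which changes some ranks. Hoxa5 thus ranked below Hoxa10, although its ratio of 21.4 is above the 20.1 of Hoxa10 at the floor. This describes genes that share the same libraries and is not a test. For the wild-type levels, rho between position and normalized reads per kilobase was -0.90 with the 3 genes at 0 ranked last, and -0.67 with them at the floor of 3 reads, so the order at the low end is not resolved. For the knockout levels rho was 0.43. For the shares of reads the cluster was split in 3 blocks, drawn after the values were seen. Hoxa2 to Hoxa4 held 46 of the 59 wild-type reads, or 78.0% (exact Clopper-Pearson interval 65.3 to 87.7), and 163 of the 657 knockout reads, or 24.8% (21.6 to 28.3). Hoxa5 to Hoxa9 held 13 wild-type reads, 22.0% (12.3 to 34.7), and 195 knockout reads, 29.7% (26.2 to 33.3). Hoxa10 to Hoxa13 held 0 of 59 wild-type reads, which allows a share of up to 5.08% by the floor of 3 reads and 6.06% by the exact interval, and 299 knockout reads, 45.5% (41.7 to 49.4). The last block is made of the 3 genes with 0 wild-type reads, so its wild-type share follows from how it was drawn, and the shares are a description only. The summed ratios of the blocks were 3.69 (2.65 to 5.24) for the first and 15.6 (8.93 to 29.9) for the middle one. For the last the ratio was 104 at the floor of 3 reads, with an interval that starts at 84.0.

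**Figure D3:**
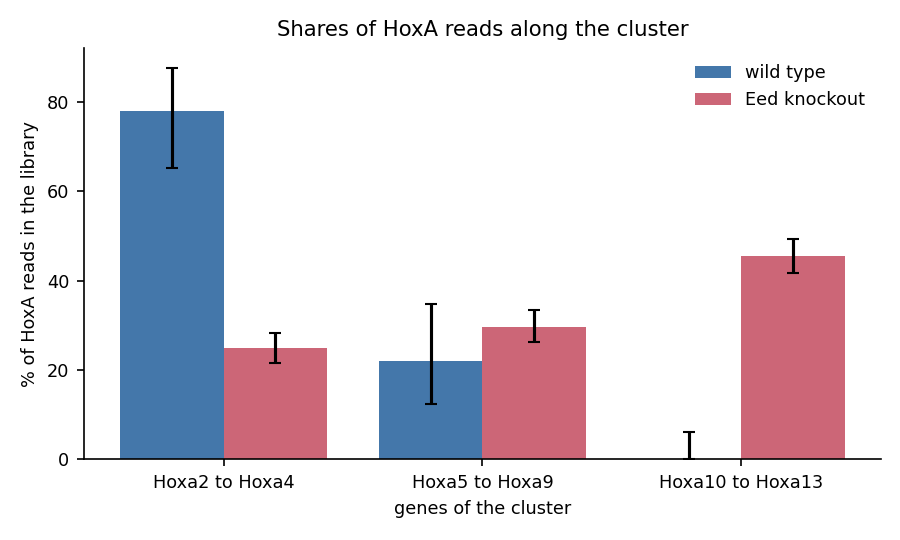
Share of all HoxA reads of a library that fell on the anterior, middle and posterior genes, in percent, for the wild-type (blue, 59 reads) and Eed knockout library (red, 657 reads), with exact 95% binomial intervals. The anterior block takes 78.0% of wild-type and 24.8% of knockout reads, and the posterior block 0 and 45.5%.

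Levels of different genes were compared per kilobase of transcript. In the knockout library Hoxa11 stood first with 76.3 normalized reads per kilobase (exact Poisson interval 65.3 to 88.7), followed by Hoxa13 with 54.6 (42.6 to 69.0), Hoxa3 with 48.1 (39.9 to 57.4), Hoxa5 with 44.6, Hoxa10 with 41.2 and Hoxa7 with 39.6. Hoxa6 with 19.9, Hoxa2 with 15.0, Hoxa4 with 9.61 and Hoxa9 with 5.70 (3.38 to 9.00) came last. The intervals of all neighbours in this order overlap, but that of Hoxa11 lies above that of Hoxa3 and those of the genes after it. Hoxa9 was thus the lowest of the 10 in the knockout library although it lies between Hoxa7 and Hoxa10, whose intervals lie above its own, while by reads Hoxa4 was the lowest with 15. In the wild-type library Hoxa3 stood first with a level of 11.0 (7.34 to 15.7), followed by Hoxa4 with 5.53 (2.53 to 10.5) and Hoxa2 with 4.41, and no other member was above 3. By level per kilobase Hoxa11 was above 60.8% of all genes with a known length in the knockout library, and Hoxa3 above 54.2%, against 41.8% in the wild type.

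**Figure D4:**
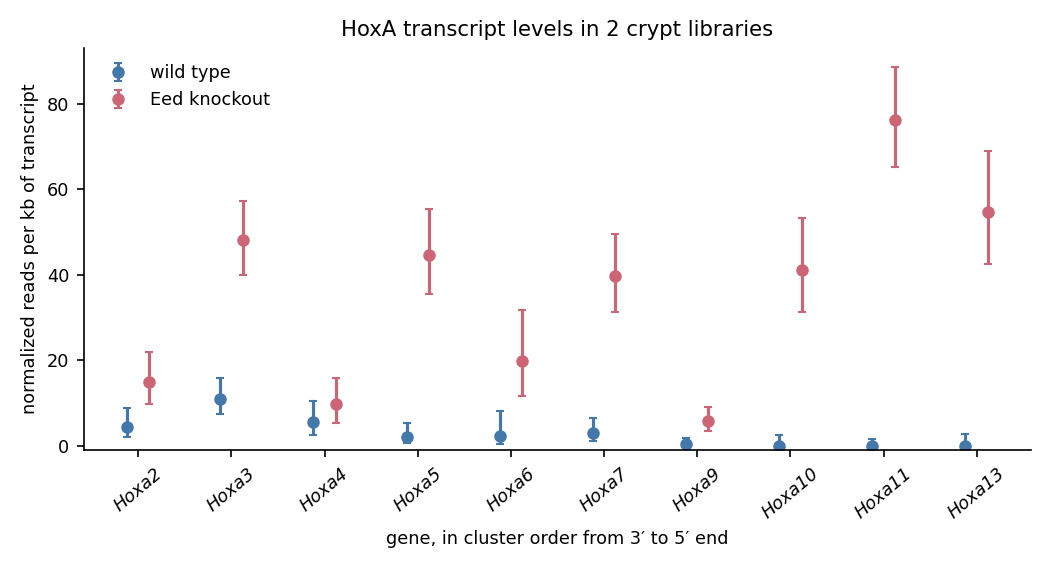
Normalized reads per kilobase of transcript of the 10 HoxA genes, in cluster order, in the wild-type (blue) and Eed knockout (red) libraries, with exact 95% Poisson intervals. The wild-type levels go from 11.0 for Hoxa3 to 0 for Hoxa10, Hoxa11 and Hoxa13, and the knockout level is highest for Hoxa11 at 76.3 and lowest for Hoxa9 at 5.70.

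Some of these reads cannot be given to 1 transcript. Hoxa10 has 2 rows, NM_001122950 with 0 and 58 reads, which is used here, and NM_008263 with 0 and 40 reads, and the 2 transcripts share 859 exonic bases on the same strand in the GENCODE annotation. Each was at 0 in the wild type. Hoxa11 shares 568 exonic bases, 24.8% of its exons, with its antisense partner Hoxa11os, and the library kit does not mark strand, so that reads there could come from either gene. Hoxa11os itself had 0 and 295 reads. Hoxa4, Hoxa5 and Hoxa6 lie inside introns of the Hoxa3 transcript, with which they share no exonic base. Hoxa3 shares 76 exonic bases with the noncoding gene Hoxaas3 on the other strand, or 8.91% of the exons of Hoxaas3. Reads there could also come from either gene.

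In the authors' deposited table, Hoxa11 was the 1 member gene with an adjusted p under 0.05, at 1.53e-04. Of all rows in that table, 0.890% had such a p and a higher knockout value. The authors' deposited table gives Hoxa13 an adjusted p of 0.129, the row of Hoxa10 used here 0.285 and Hoxa5 0.314. The authors' deposited table gives 7 of the 11 HoxA rows an unadjusted p under 0.05, and it does so for 4.02% of all rows. These p-values compare 1 library with 1 library and do not measure variation between animals.

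Noncoding RNAs of the locus were higher too. Of 10 listed, 5 had a row, 4 of these were 2-fold or more higher at the floor, and the other, Evx1os, had 0 and 1 reads. Mira, a long noncoding RNA that lies between Hoxa6 and Hoxa7, had 4 and 86 reads and a scaled ratio of 22.4 (8.44 to 84.1). Its neighbours Hoxa6 and Hoxa7 had ratios of 8.86 and 13.5, within that interval. Mira had no matched GENCODE transcript, so its exon overlaps were not examined. Hoxaas3, listed as 2700086A05Rik and spanning Hoxa5 and Hoxa6 on the other strand, had 1 and 42 reads, or a ratio of 43.8 (7.44 to 1770). Hoxa11os was 102-fold higher at the floor, with an interval that starts at 82.8, and the authors' deposited table gives it an adjusted p of 1.44e-07. The hairpin row of Mir196b, the microRNA gene between Hoxa9 and Hoxa10, had 0 and 10 reads. At the floor Mir196b was 3.47-fold higher, with an interval that starts at 2.34. Its mature 5′ arm is shown, from RefSeq, because in mammals miR-196 is known to target Hox transcripts, Hoxb8 among them, and its seed, bases 2 to 8, is in capitals.
mmu-miR-196b-5p: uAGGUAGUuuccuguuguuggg
Hoxb8 had 0 and 86 reads. An mRNA library does not measure the mature microRNA, so the hairpin reads say nothing of its level.

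Most other coding genes around the cluster were within 2-fold or near 0 reads, and Evx1 and Nfe2l3 were higher. Evx1, the homeobox gene on the Hoxa13 side, had 1 and 14 reads and a scaled ratio of 14.6 (2.22 to 617). Skap2, an adaptor protein gene on the Hoxa2 side of the cluster, had 578 and 631 reads, or a ratio of 1.14 (1.01 to 1.28). Hibadh, a mitochondrial enzyme gene and the next coding gene beyond Evx1, had 654 and 613 reads, giving a ratio of 0.977 (0.874 to 1.09). Further out, Tax1bp1 had a ratio of 0.801 (0.761 to 0.843), Cbx3, which encodes a heterochromatin protein, 1.10 (1.01 to 1.21) and Hnrnpa2b1 1.06 (0.860 to 1.30). Nfe2l3, a transcription factor gene, had 15 and 48 reads and a scaled ratio of 3.34 (1.84 to 6.41). Snx10, Jazf1 and Creb5 had 3 reads or fewer in each library. Of the 10 flanking genes counted, 2 were higher by 2-fold or more, none was lower, and the median log2 ratio was 0.16.

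Paralogs, the genes of the same number in the other clusters, are set beside the HoxA genes by their levels per kilobase. In group 13, Hoxa13 stood at 0 and 54.6 normalized reads per kilobase, Hoxb13 at 0 and 372, Hoxc13 at 0 and 12.9, and Hoxd13 at 0 and 69.9. All the genes of group 13 were thus at 0 wild-type reads and had knockout reads. In group 11, Hoxa11 stood at 0 and 76.3, Hoxc11 at 0 and 18.2, and Hoxd11 at 0 and 1.84, the last from 2 reads. In group 9 the order was different, with Hoxa9 at 0.304 and 5.70, Hoxb9 at 3.04 and 137, Hoxc9 at 0 and 29.7, and Hoxd9 at 0.917 and 33.0. In group 4, Hoxa4 stood at 5.53 and 9.61, Hoxb4 at 1.53 and 32.2, Hoxc4 at 0 and 4.63, and Hoxd4 at 2.68 and 122. In group 3, Hoxa3 stood at 11.0 and 48.1, Hoxb3 at 0 and 4.48, and Hoxd3 at 0.330 and 20.3. In group 10, Hoxa10 stood at 0 and 41.2, Hoxc10 at 0 and 36.4, and Hoxd10 at 0.539 and 16.9. In groups 5 to 7 the knockout values of the HoxB genes were above those of the HoxA genes, a difference that was not tested, with Hoxb5 at 60.9 and Hoxa5 at 44.6, Hoxb6 at 136 and Hoxa6 at 19.9, and Hoxb7 at 101 and Hoxa7 at 39.6. In the knockout library Hoxc5 stood at 10.8 and Hoxc6 at 66.5. Group 2 was alike in its values, with Hoxa2 at 4.41 and 15.0 and Hoxb2 at 4.21 and 13.8.

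**Figure D5:**
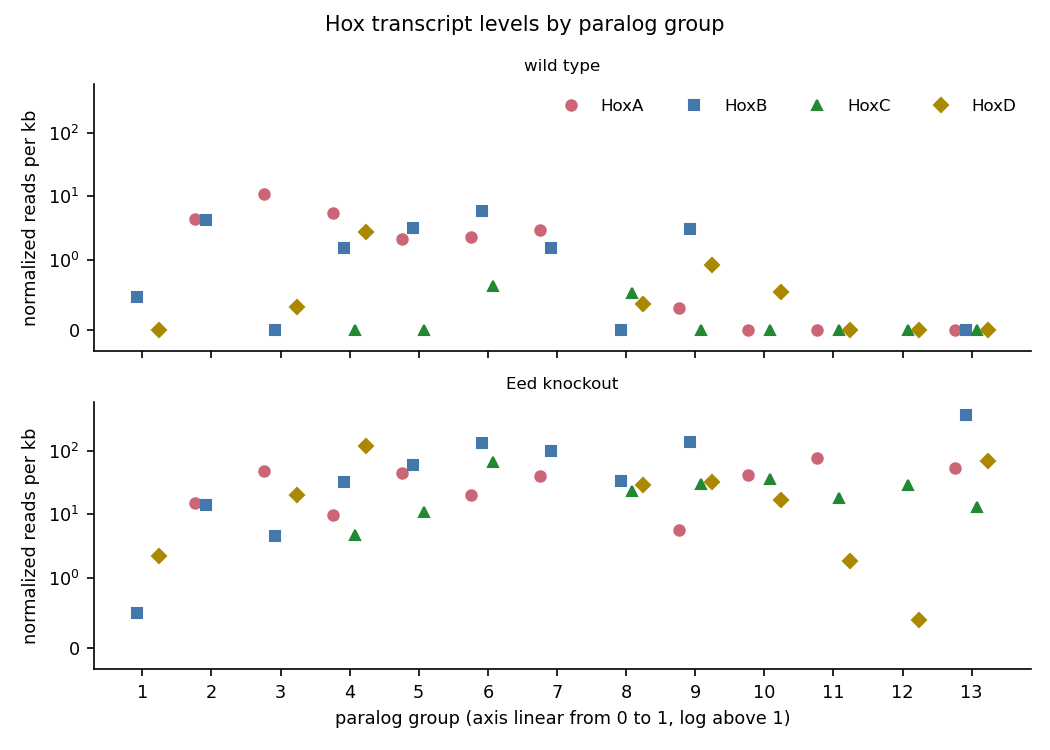
Normalized reads per kilobase of the Hox genes by paralog group in the wild-type library (top) and the Eed knockout library (bottom), with 1 symbol per cluster. The axis is linear up to 1 and logarithmic above. In the wild type Hoxa3 is the highest at 11.0, and in the knockout Hoxb13 is the highest at 372, above Hoxa13 at 54.6.

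Summed over the 10 members, HoxA had the most wild-type reads and the smallest ratio of the 4 clusters. HoxA held 59 and 657 reads, or a ratio of 11.6 (8.88 to 15.4). Hoxa3 alone gave 29 of the 59 wild-type reads, so the rank of HoxA by wild-type reads rests on that gene. HoxB held 36 and 1770 reads, giving a ratio of 51.2 (36.9 to 73.4), HoxC 2 and 418, a ratio of 218 (59.9 to 1805), and HoxD 12 and 716, a ratio of 62.2 (35.4 to 121). The counting interval of HoxA lies below those of the other clusters, which overlap each other. This compares counting error within the same libraries and is no test between clusters. The median log2 ratio per gene was 3.42 for HoxA, 4.22 for HoxB, 3.64 for HoxC and 4.59 for HoxD. For these medians, genes with 0 wild-type and more than 3 knockout reads were set to the floor. In HoxC 7 of 9 genes had 0 wild-type reads, so its median is set by the floor and cannot be ranked against the others. Without the floor the HoxC median was 5.03, and those of HoxA, HoxB and HoxD were unchanged. In HoxB 9 of 10 genes were at least 2-fold higher at the floor, in HoxC 9 of 9 and in HoxD 6 of 9.

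The gene pattern most like the median member, measured as the distance in log2(normalized reads + 1) over the 2 libraries, was that of Mark1, with 3 and 64 reads and a distance of 0.05. Dusp22 (3 and 62 reads), Hspb1 (3 and 66), Azgp1 (3 and 61) and Tnfrsf8 (3 and 60) followed. With 2 libraries such a likeness is one of counts only.

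Genes that act with or on Hox genes were mostly within 2-fold. Pbx and Meis proteins are the DNA-binding partners of Hox proteins. Of 5 TALE cofactors counted, 4 had a mean of at least 20 and all 4 were within 2-fold. Pbx4 had 34 and 56 reads, a scaled ratio of 1.72 (1.10 to 2.71). Pbx3 had 83 and 105 reads and Pknox1 30 and 17. Meis1 had 0 and 6 reads. It was 2.08-fold higher at the floor, but its interval starts at 1.23, so a 2-fold difference is not resolved. Of 14 activators of Hox genes with a row, 11 had that mean. None of these 11 was 2-fold higher or lower, and their median log2 ratio was -0.33 against -0.11 for all genes with that mean. Cdx2, the intestinal homeobox factor that activates Hox genes in the embryo, had 1964 and 1015 reads, or a ratio of 0.539 (0.499 to 0.581). Rxra, a retinoid receptor partner, had a ratio of 0.552 (0.517 to 0.589), Rara, a retinoic acid receptor, one of 0.706 (0.470 to 1.05), and Kdm6b, a demethylase that removes the PRC2 mark, one of 0.721 (0.678 to 0.767). Other retinoic acid receptors, named after their values were seen, had few reads, with 6 and 22 for Rarb and 1 and 21 for Rarg. Their means were under 20, so they are not among the 11 above. Both were more than 2-fold higher, with scaled ratios of 3.82 for Rarb and 21.9 (3.52 to 905) for Rarg. The counting interval of Rarb reaches below 2, so a 2-fold difference is not resolved for that gene. The part of these receptors in the HoxA values was not tested. Of 10 PRC2 genes with a mean of at least 20, Eed, with 588 and 183 reads, was the 1 that was lower, by 3.08-fold (2.61 to 3.66). The position of the loxP sites in Eed is not in the labels, so the remaining reads do not measure how many cells kept a working gene. Epop, an accessory PRC2 protein gene listed as E130012A19Rik, was the 1 that was higher, with 38 and 347 reads, giving a ratio of 9.52 (6.80 to 13.7). Phf1 and Phf19, both accessory subunits, had ratios of 0.685 (0.610 to 0.768) and 1.28 (0.890 to 1.86).

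Hox genes are also expressed in gut mesenchyme and nerves, and some markers of other cell types were higher in the knockout library too. In bulk samples fewer cells of a type and less RNA per cell cannot be told apart. All 13 crypt epithelium markers were within 2-fold, and their summed level was 30781 and 28549 normalized reads. Olfm4 and Lgr5, markers of crypt stem cells, had ratios of 0.649 (0.609 to 0.690) and 1.36 (1.20 to 1.53), and the keratin gene Krt18 one of 1.23 (1.15 to 1.32). Of 14 mesenchyme markers with a row, 7 were higher by 2-fold or more and none was lower, and their summed level was 406 and 940. The collagen genes were among the higher ones, Col1a1 with 1 and 155 reads, Col1a2 with 0 and 124, Col3a1 with 6 and 198 and Col6a1 with 3 and 50. The defining fibroblast markers Pdgfra, with 1 and 0 reads, and Dcn, with 0 and 1, were at or near 0 in both libraries, Lum had 0 and 16, and Vim had 265 and 210. Of 10 immune markers, 4 were higher and none lower, with summed levels of 218 and 531. The macrophage genes Lyz2 (27 and 230 reads) and Csf1r (28 and 94) were among the higher ones. Cd68, also a macrophage marker, had 32 and 30 reads, and Ptprc, the common leukocyte marker, had 8 and 12. Of 4 endothelium markers with a row, 2 were higher, with summed levels of 25.5 and 59.2. Of 5 enteric neuron and glia markers with a row, 2 were higher, with summed levels of 39.2 and 113, and Sox10 had 0 and 1 reads. Ret, a receptor of enteric neurons, had 20 and 68 reads. Of 12 exocrine pancreas markers with a row, 11 were higher and none lower, with summed levels of 469 and 2464, and Cel had 4 and 223 reads, Prss2 2 and 177, Cpb1 2 and 134 and Cela2a 7 and 242. The part of these cell types in the HoxA values was not tested.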

How the data were processed

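Crypt RNA was made into mRNA libraries with the TruSeq RNA Sample Preparation Kit (version 2), per the labels' protocols. The submitters' processing notes name TopHat, DESeq and the build mm9. Sources used here do not give the counting tool or its strand setting. The authors deposited 18766 RefSeq transcript rows with 1 normalized signal per library, their ratio (fold change), its log2 and unadjusted and adjusted p-values, per the file headers.

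Within a tolerance of 1e-06, 100% of values were whole multiples of the lowest value of their column. No row was at the lowest value in both columns, so 1 read was taken to have been added to every value, and reads are the steps minus 1, in all 6970733 (wild type) and 5918162 (knockout). Of the rows that share a symbol, the one of highest mean was used (17216 genes). Ratios use reads and the authors' size factors, with 95% intervals (exact, Clopper-Pearson) given the reads of both libraries together. Without molecular identifiers PCR copies count as reads, so that every interval and floor covers counting error only. Log2 ratios have a pseudocount of 1 normalized read, which understates differences of low genes. Ratios at the floor have no pseudocount. Calls need a log2 ratio of at least 1 in size and, where stated, a mean of at least 20. Alternatives were other pseudocounts, scalings, filters and folds, a symbol's rows summed and deposited values as they stand. An exact binomial test on the reads with Benjamini-Hochberg adjustment at 0.05 was added after seeing the data. Lengths and exon overlaps come from GENCODE vM21 transcripts matched by accession (97.7% of rows, all 10 members), and names from RefSeq for GRCm38.p6, which matched 98.6% of rows. As the authors' build is mm9, the only coordinates given are those of printed GRCm38.p6 promoters. Named genes were the members, the genes of the locus, Eed and up to 4 genes per other list with the largest log2 ratios and a mean of at least 20. Some genes of these lists are not reported here. Others named, such as paralogs and defining markers, serve to read a list. The members and lists were chosen with earlier results of these data known. The scripts ran under Python 3.11.15 with SciPy 1.17.1, pandas 2.3.3, NumPy 2.4.6 and Matplotlib 3.10.9, and were tested on simulated data.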

Additional observations from a re-analysis of the deposited data

How the results depend on the processing

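The 6 HoxA genes that reached a mean of 20 were all called higher, and 5 of them passed that filter through their knockout values, so this count could hardly move. It was 6 with pseudocounts of 0.5 and 10, 3 other scalings, a symbol's rows summed, deposited values as they stand and folds of 1.5 and 4, while the share of all genes called higher went from 5.39% (fold 4) to 16.9% (fold 1.5). With no filter it was 9 of 10, beside 21.7% of all genes, and with a mean of at least 5 it was 9 of 10, beside 15.1%. With a mean of at least 100 no member was left and the count was 0, which follows from the filter. The exact binomial test called 9 of 10 members higher, and 2955 of all genes higher and 3976 lower. The median log2 ratio of the 10 members was 2.15 with a pseudocount of 10, which pulls low counts together, and 3.08 to 3.66 under the other alternatives that keep all members. The log2 ratio of Hoxa4 ran from 0.43 to 0.89. The other scalings shift log2 ratios by 0.09 to 0.18 before the pseudocount is added, and by less for genes with few reads. Ranking the 0-read genes at the floor, chosen after seeing the data, changed rho between position and wild-type level from -0.90 to -0.67. With 1 library per genotype no library can be left out. No paired analysis was possible because each genotype has 1 library. At this depth, genes with few reads, such as Hoxa4, Hoxa6 and Hoxa9, have intervals too wide to order them.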
